A study of Mus musculus with 18 samples.

Results

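The 9 genes described here belong to the pathway by which cells respond to low oxygen: 2 hypoxia-inducible factor subunits (Hif1a, Epas1), 2 prolyl hydroxylases (Egln1, Egln3) and 5 target genes (Adm, Ankrd37, Bnip3, Ndrg1, Ddit4). They were chosen with earlier results of these data known, so their counts beside all genes are descriptive. They were taken by gene symbol, and all 9 were found among the 24419 symbols of the expression table. RNA-seq was performed on the left ventricle of 18 male C57BL/6 mice, 8 weeks old, with the infarcted region taken in the AMI mice. They fell into 6 groups of 3 mice, a sham group (called control in the sample labels) and AMI groups taken 10 min, 1 h, 6 h, 24 h and 72 h after the operation. For AMI (acute myocardial infarction) the LAD, the artery that feeds the front wall and apex of the ventricle, was tied near its origin, and pentobarbital anaesthesia is described for all groups. No reperfusion is described, each mouse gave tissue at 1 time, and the same 3 sham mice serve every comparison with sham. The labels give no time for the sham group, and no sham group matched to each later time is described.

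The alpha subunits of the hypoxia-inducible factors are made continuously and, while oxygen is present, are hydroxylated on proline by the EGLN enzymes, bound by the VHL protein and degraded. When oxygen falls the subunits escape hydroxylation, join ARNT and bind short DNA elements with the core ACGTG or GCGTG near genes of glycolysis, vessel growth, mitophagy and growth arrest. This control acts on protein, so the transcript of Hif1a is no measure of HIF-1α activity, whereas the transcripts of targets such as Egln3 and Ankrd37 are used as its readout.

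Promoter sequence was examined because the targets are defined by such elements. Promoters from 250 bases before to 50 bases after the start site, from RefSeq on GRCm38.p6, were matched for 7 of the 9 genes, with Epas1 and Ndrg1 not matched. Both strands were searched for ACGTG and GCGTG, which appear as CACGT and CACGC when they lie on the other strand, and overlapping matches were counted separately, so the palindrome CACGTG counts as 2. All 7 promoters held at least 1 match, against 43.8% of 32851 promoters of the same length and 60.7% of the 12678 promoters of genes tested here. Both cores contain the pair CG, and G and C made up 54.7% (Egln3) to 86% (Egln1) of the 7 promoters. The 2 background shares were not matched for this content, so the comparison does not show enrichment. Bnip3 held 5 matches, Ankrd37 held 4, Hif1a held 3, Egln1, Adm and Ddit4 held 2 each, and Egln3 held 1. At least 4 matches were found in 3.86% of all promoters and in 7.04% of those of genes tested. The promoters of the 4 matched targets with a call against sham follow with each match in capitals, 5′ to 3′ on the strand of the gene, and positions are counted from the start site to the first base of a match. Bnip3, with 4 of its 5 matches packed between positions -117 and -99 and another at -35, lies on the minus strand at chr7:138909457-138909756. Ankrd37, with a match at -241, an overlapping pair at -155 and -152 and another at -6, lies on the minus strand at chr8:45999801-46000100. In GENCODE M21 Ankrd37 and Hif1a extend upstream of the RefSeq promoters used here, which lie inside the gene spans given below. Adm, with matches at -90 and -54, lies on the plus strand at chr7:110627407-110627706. Ddit4, with matches at -187 and -115, lies on the minus strand at chr10:59951721-59952020. A match is a description of letters and was not tested as a binding site.
Bnip3: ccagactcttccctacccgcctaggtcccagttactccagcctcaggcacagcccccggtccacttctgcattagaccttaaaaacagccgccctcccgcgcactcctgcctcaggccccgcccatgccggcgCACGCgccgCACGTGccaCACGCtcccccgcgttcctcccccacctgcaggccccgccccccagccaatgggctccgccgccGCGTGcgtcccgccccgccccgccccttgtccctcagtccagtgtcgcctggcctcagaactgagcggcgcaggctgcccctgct
Ankrd37: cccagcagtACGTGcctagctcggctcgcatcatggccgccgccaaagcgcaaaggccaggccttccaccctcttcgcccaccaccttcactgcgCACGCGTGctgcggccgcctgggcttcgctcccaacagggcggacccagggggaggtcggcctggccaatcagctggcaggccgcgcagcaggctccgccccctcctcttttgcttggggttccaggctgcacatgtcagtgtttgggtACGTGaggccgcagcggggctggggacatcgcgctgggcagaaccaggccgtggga
Adm: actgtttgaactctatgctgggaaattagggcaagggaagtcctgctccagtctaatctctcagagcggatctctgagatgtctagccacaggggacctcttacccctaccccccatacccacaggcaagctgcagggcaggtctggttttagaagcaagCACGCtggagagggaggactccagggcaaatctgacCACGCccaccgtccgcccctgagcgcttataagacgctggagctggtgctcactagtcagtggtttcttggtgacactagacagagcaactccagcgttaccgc
Ddit4: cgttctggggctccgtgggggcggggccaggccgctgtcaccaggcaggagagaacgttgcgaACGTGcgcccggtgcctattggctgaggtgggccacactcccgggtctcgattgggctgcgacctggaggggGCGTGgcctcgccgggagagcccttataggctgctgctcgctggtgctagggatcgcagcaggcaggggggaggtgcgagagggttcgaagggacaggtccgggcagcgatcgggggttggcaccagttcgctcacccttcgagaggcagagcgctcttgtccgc

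Expression was measured in FPKM, a fragment count divided by transcript length and by the mapped total of the library, so that levels can be compared between genes. Depth in reads is unknown, since the table holds no counts. Relative depth, estimated from the lowest values of each mouse against the first sham mouse, lay between 0.818 and 1.31, and the 3 mice at 72 h (1.24 to 1.31) were the deepest group. Changes are differences of mean log2(FPKM + 1) with their standard error (SE), tested with limma across all genes that reached 1 FPKM in any mouse. A gene is called when its Benjamini-Hochberg adjusted p is under 0.05. An exact permutation test of 3 mice against 3 cannot give a p below 0.1 for a single gene, so none is reported. Statements below that all mice of a group lay above or below all sham mice are descriptions. Among all genes tested, the share whose range did not overlap that of sham was 18.3% (1 h group), 20.4% (10 min group), 48.8% (6 h group), 58.3% (24 h group) and 80.6% (72 h group). From 6 h on such separation was thus common among all genes. All 9 genes passed the filter on low values, and all reached 1 in at least 1 sham mouse, so none passed it through an AMI group alone. The log2(FPKM + 1) scale understates the changes of Adm and Ankrd37, which were near 1 FPKM. The summed FPKM of 10 cardiomyocyte markers fell from 69414–73485 in sham to 23185–30196 at 72 h, and that of 8 macrophage markers rose from 307–361 to 4628–6169. No marker of the cardiomyocyte, endothelial, mural, fibroblast, macrophage, neutrophil or erythroid lists was at 0 in all mice of a group. Rescaling each mouse by the median of ratios moved the median change of all genes from 0.13 to 0.01 at 24 h and from 0.29 to 0.03 at 72 h against sham, on the log2 scale. On the rescaled data the changes at 72 h were 1.10 for Hif1a, -1.75 for Epas1, -1.69 for Egln1, -0.86 for Egln3 and -0.98 for Bnip3, all called in the same direction as on FPKM as deposited.

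In the sham heart the mean levels of the 9 transcripts ran from 1.02 to 130 FPKM. Egln1 (130 ± 2.74 FPKM, SD, n = 3) and Epas1 (118 ± 4.62) stood at the 95.3 and 94.8 percentiles of the genes tested. Bnip3 (48.6 ± 1.75), Ddit4 (32.4 ± 5.89), Egln3 (31.2 ± 4.69) and Ndrg1 (24.2 ± 1.25) formed a middle group, with Hif1a lower at 11.7 ± 0.62. Adm (1.07 ± 0.092) and Ankrd37 (1.02 ± 0.408) stood at the 15.1 and 14.6 percentiles. The sham ranges of Ddit4 and Egln3 overlapped, as did those of Adm and Ankrd37. The plot of the 9 genes by mouse shows every value.

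**Figure D1:**
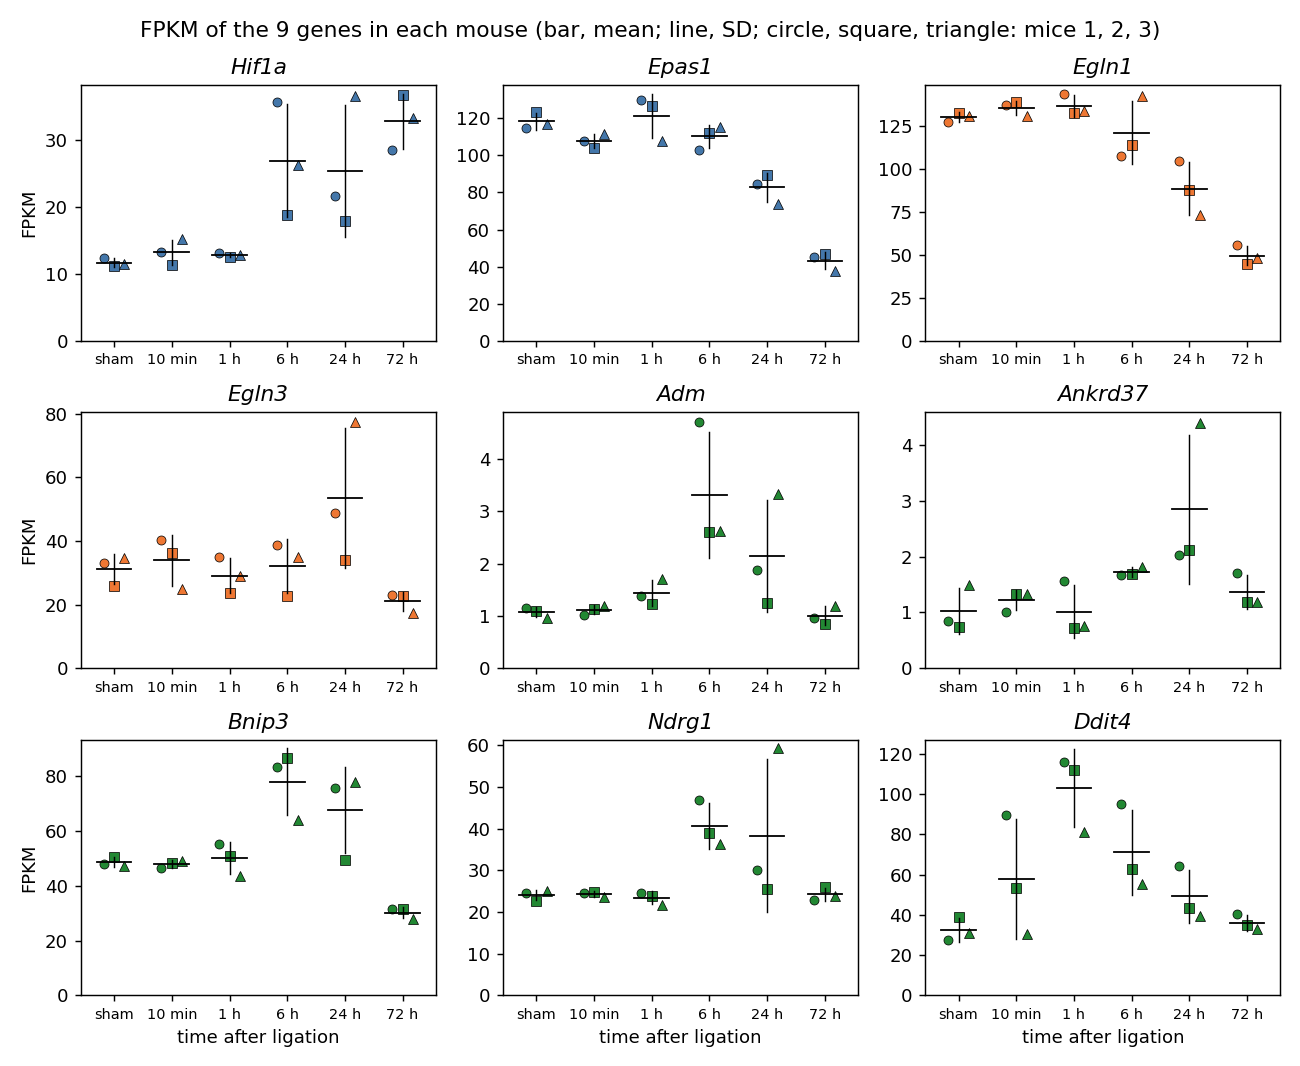
FPKM (vertical axes, starting at 0) of each of the 9 genes in each mouse, by group (horizontal axes). Circles, squares and triangles are mice 1, 2 and 3 of a group, bars are means and vertical lines the SD (n = 3). Hif1a is high from 6 h on, Epas1 and Egln1 are lowest at 72 h, and Ddit4 is highest at 1 h.

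At 10 min none of the 9 genes was called higher and none lower, while 0.248% of all genes tested were called higher and 0.0978% lower. At an unadjusted p under 0.05 there was 1, Epas1, with a log2 change of -0.13 (adjusted p = 0.304), whose mice at 10 min lay below all sham mice. Shares of all genes at an unadjusted p under 0.05 are not given. Counts at that cut, here and below, therefore have no share beside them. At 1 h 1 gene, Ddit4, was called higher against 0.669% of all genes, and 0 of 9 were called lower against 0.0526%. At 6 h 5 of 9 were called higher (Hif1a, Adm, Bnip3, Ndrg1, Ddit4) against 11.6% of all genes, and 0 of 9 lower against 16.8%. Their median log2 change was 0.66 at 6 h, where that of all genes was -0.08. Neither hydroxylase was called at 6 h, and neither were Epas1 and Ankrd37. At 24 h 2 of 9 were called higher (Hif1a, Ankrd37) against 26.2%, and 2 lower (Epas1, Egln1) against 11.4%. At 72 h 1 of 9 was called higher (Hif1a) against 53.1%, and 4 lower (Epas1, Egln1, Egln3, Bnip3) against 24.2%. The 5 of 9 called higher at 6 h stood above the share of all genes, the 2 of 9 at 24 h stood near it, and the 1 of 9 at 72 h stood below it. The plot of changes against sham shows these values with their SE.

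**Figure D2:**
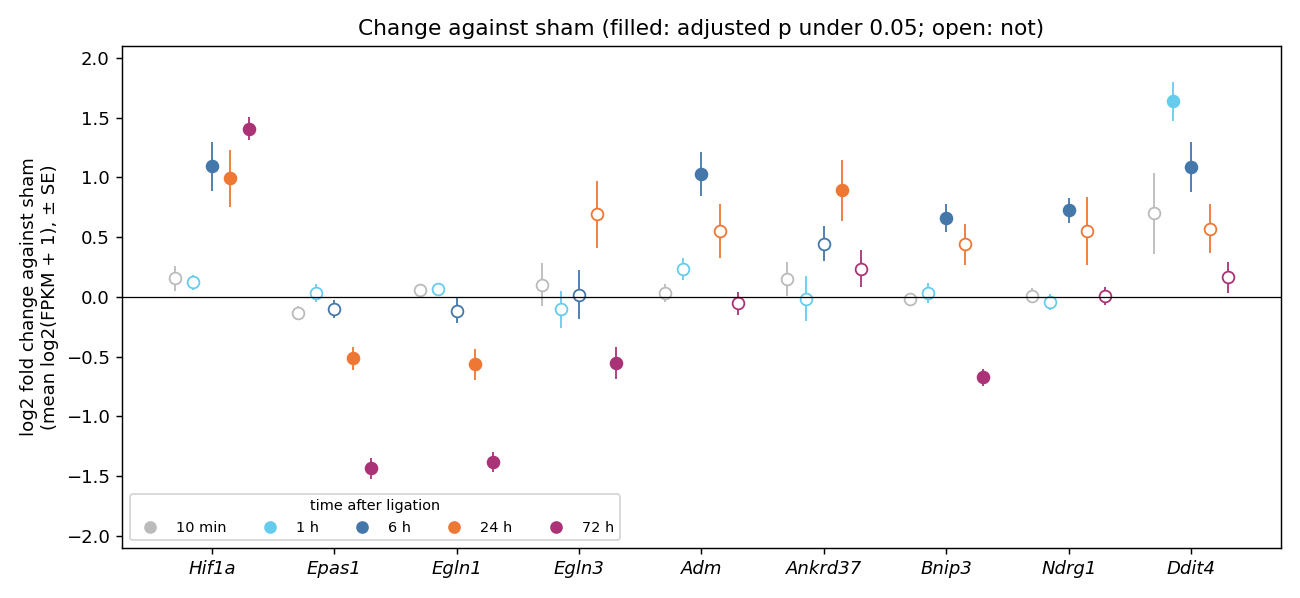
Change of each gene against sham at each time (vertical axis, difference of mean log2(FPKM + 1), points with ± SE, 3 mice against 3), with filled points for an adjusted p under 0.05 and open points otherwise. Ddit4 alone is filled at 1 h, and Hif1a is filled above 0 at 6 h, 24 h and 72 h, where Epas1 and Egln1 are filled below 0 at 24 h and 72 h.

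Between neighbouring times the calls fell into 2 steps, although Ddit4, Epas1 and Egln1 also moved at other steps without a call. At 1 h against 10 min 0 of 9 genes were called higher (0.391% of all genes) and 0 lower (0.211%), with 1 gene, Ddit4, at an unadjusted p under 0.05. At 6 h against 1 h 4 were called higher (Hif1a, Adm, Bnip3, Ndrg1) against 9.32% of all genes and 0 lower against 11.2%. At 24 h against 6 h 0 were called higher (12.5%) and 0 lower (1.94%), although 2 genes, Epas1 and Egln1, had an unadjusted p under 0.05. At 72 h against 24 h 0 were called higher (29.7%) and 4 lower (Epas1, Egln1, Egln3, Bnip3) against 13.5%. The 4 calls at 6 h against 1 h dropped to 1 without mouse 2 or without mouse 3 at 1 h. At 72 h against 24 h 1 gene was called higher without the third mouse at 24 h.

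Hif1a, on chromosome 12 (73901375–73947530, plus strand, mm10), encodes the widely expressed oxygen-labile subunit HIF-1α. It measured 12.4, 11.2 and 11.5 FPKM in the sham mice, 13.2, 11.3 and 15.2 at 10 min and 13.1, 12.5 and 12.8 at 1 h. The 6 h mice had 35.7, 18.8 and 26.3, the 24 h mice 21.7, 17.8 and 36.6, and the 72 h mice 28.5, 36.8 and 33.3. Each of the 9 mice from 6 h on lay above each of the 9 earlier mice, and the spread was widest at 6 h and 24 h. Against sham the mean was 2.30 times as high at 6 h (log2 change 1.09, SE 0.20, adjusted p = 0.00952), 2.17 times at 24 h (0.99, SE 0.24, adjusted p = 0.0197) and 2.81 times at 72 h (1.41, SE 0.096, adjusted p = 2.28e-06). The ranges of 6 h, 24 h and 72 h overlapped, and neither 24 h against 6 h nor 72 h against 24 h was called. The call at 24 h was lost on leaving out any 1 sham mouse (adjusted p = 0.0645 to 0.0711) and kept without any 1 mouse of the 24 h group. Neutrophil markers moved with it in part, since the summed FPKM of 6 such markers was 2.32–5.0 in sham, 1002, 117 and 377 in mice 1, 2 and 3 at 6 h, and 210, 42.9 and 968 at 24 h. In both groups the order of the mice in Hif1a was the order in neutrophil markers, and at 72 h, where the mean of Hif1a was highest, that sum was 51.5–62.0. At 72 h the summed macrophage markers stood at 1613% of sham and the 7 fibroblast markers at 1604% (3811–4930 FPKM against 256–288). Of these markers 8 of 8 and 7 of 7 were called higher, against 53.1% of all genes. The part of these cells in the result was not tested.

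Epas1, on chromosome 17 (86753700–86833410, plus strand), encodes HIF-2α, known for its high level in endothelial cells. Its FPKM were 115, 124 and 117 in sham, 108, 104 and 112 at 10 min, 130, 127 and 108 at 1 h and 103, 112 and 115 at 6 h. Values of 84.7, 89.5 and 74.0 followed at 24 h and of 45.3, 46.6 and 37.8 at 72 h. All mice at 24 h lay below all earlier mice, and all mice at 72 h lay below those at 24 h. Epas1 fell by 0.52 on the log2 scale at 24 h (SE 0.094, adjusted p = 0.00933) and by 1.44 at 72 h (SE 0.087, adjusted p = 1.19e-06), to 0.366 of the sham mean. The fall from 24 h to 72 h was itself called (-0.92, adjusted p = 0.00115).

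Egln1, on chromosome 8 (124908587–124949324, minus strand), encodes PHD2, the principal oxygen sensor of the pathway. In sham mice it was at 127, 132 and 131 FPKM, with group means of 135 at 10 min and 137 at 1 h. Values of 107, 114 and 142 were measured at 6 h, followed by 104, 87.6 and 73.3 at 24 h, while the 72 h mice had 55.6, 44.9 and 48.0. The groups up to 6 h overlapped, and those at 24 h and 72 h lay below all of them and apart from each other. The change was -0.57 at 24 h (SE 0.13, adjusted p = 0.0173) and -1.38 at 72 h (SE 0.084, adjusted p = 1.21e-06), which brought the mean to 0.381 of sham. Without any 1 sham mouse the call at 24 h was lost (adjusted p = 0.0625 to 0.0671), and without mouse 3 at 6 h Egln1 was called lower at that time (-0.24, adjusted p = 0.0366).

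Epas1 and Egln1 moved together and with the summed cardiomyocyte markers. The summed cardiomyocyte markers stood at 88.6% of their sham mean at 6 h, 70.0% at 24 h and 36.0% at 72 h. Of the 10 markers in that sum 2, 7 and 10 were called lower, against 16.8%, 11.4% and 24.2% of all genes. Per unit of that sum, Epas1 stood at 105%, 100.3% and 103% of its sham ratio at these times. Egln1 per unit of the same sum was at 105%, 96.9% and 106%. Both ratios thus stayed within 11% of sham at every time, while the FPKM itself fell. The sum is weighted to the highest markers, with Tnnt2 at 22863 of 71494 FPKM in sham and 20151 of 50028 at 24 h. Single markers differed, with log2 changes from -0.18 (Tnnt2) to -1.19 (Myh6) at 24 h and from -0.87 (Actc1) to -2.16 (Ckm) at 72 h. The near-constant ratios therefore depend on the markers and their weights. The 10 endothelial markers, summed, were at 124%, 109% and 98.3% of sham at these times. Epas1 per unit of that sum went down to 37.2% at 72 h. Of these 10 markers 2 were called higher and 4 lower at 72 h, against 53.1% and 24.2% of all genes. In bulk tissue fewer cells of a type and less RNA per cell cannot be told apart, here or for the other genes. Over the 18 mice Pearson's r between Epas1 and Egln1 was 0.965 on the log2 scale, given as a description, since the mice share their groups.

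**Figure D3:**
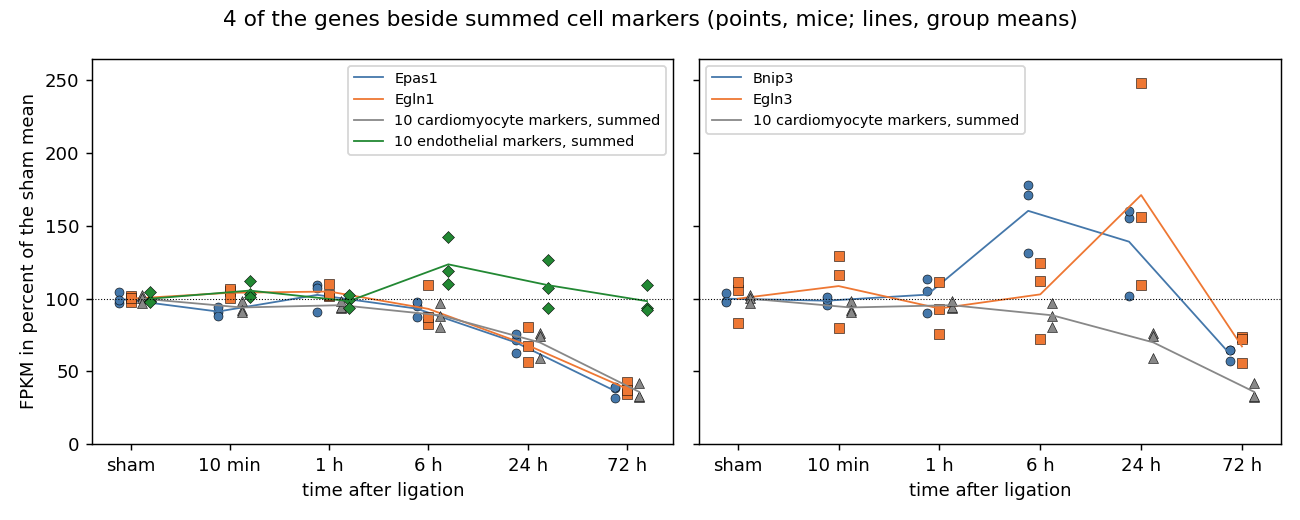
FPKM in percent of the sham mean (vertical axis) by group (horizontal axis), points for mice and lines for group means. On the left Epas1 and Egln1 run with the sum of 10 cardiomyocyte markers down to about 36.0% at 72 h while the sum of 10 endothelial markers ends at 98.3%, and on the right Bnip3 and Egln3 stand above the cardiomyocyte sum at 24 h and 72 h.

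Hif1a and Epas1 thus went in opposite directions, which is seen within each mouse as their ratio. Epas1 exceeded Hif1a by a ratio of 9.25, 11.0 and 10.1 in the sham mice, with means of 8.24 at 10 min and 9.49 at 1 h. The ratio was 2.89, 5.98 and 4.38 in the 6 h mice, 3.90, 5.01 and 2.02 in the 24 h mice and 1.59, 1.27 and 1.14 in the 72 h mice. From 6 h on each mouse was below every earlier mouse, and at 72 h the mean was 1.33 ± 0.233 (SD, n = 3) against 10.1 ± 0.892 in sham. A ratio within a library does not depend on the scaling between mice, and it shows unequal change, not which gene changed. The plot of ratios within mice gives this ratio and that of the hydroxylases.

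**Figure D4:**
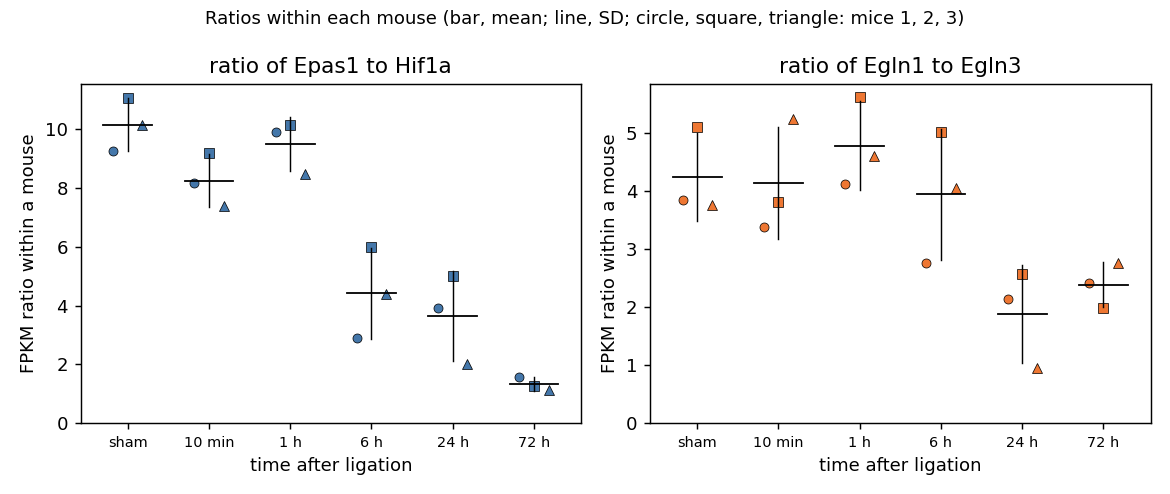
Ratio of FPKM within each mouse (vertical axes, starting at 0) of Epas1 to Hif1a on the left and of Egln1 to Egln3 on the right, by group. Circles, squares and triangles are mice 1, 2 and 3, bars means and vertical lines the SD (n = 3). The first ratio goes from 10.1 in sham to 1.33 at 72 h, and the second is lowest at 24 h, at 1.89.

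Egln3, on chromosome 12 (54178981–54203860, minus strand), encodes PHD3, a hydroxylase whose own transcription HIF raises in many cells. Sham mice had 33.0, 25.9 and 34.8 FPKM, and the means at 10 min, 1 h and 6 h were 33.9, 29.1 and 32.1. It measured 48.7, 34.1 and 77.5 in the 24 h mice and 23.0, 22.5 and 17.4 in those of 72 h. At 24 h 2 of 3 mice were above all sham mice and the remaining one was within their range, so the log2 change of 0.69 (SE 0.28) was not called (adjusted p = 0.0889). Leaving out the second mouse at 24 h gave 0.97 (adjusted p = 0.0289). At 72 h all mice lay below all sham mice and Egln3 fell by 0.55 (SE 0.13, adjusted p = 0.00505), a call lost when all 18 mice shared one estimate of the spread (adjusted p = 0.0702). The fall from 24 h to 72 h was -1.24 (adjusted p = 0.00976). Per unit of cardiomyocyte markers Egln3 stood at 257% of sham at 24 h and 188% at 72 h, so it fell less than these markers. Egln1 exceeded Egln3 by a ratio of 4.24 ± 0.756 in sham, and by 2.14, 2.57 and 0.947 in the 3 mice at 24 h, so that in the third of these mice Egln3 was the higher transcript.

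Among the targets Ddit4, on chromosome 10 (59949669–59951834, minus strand), moved first. It encodes REDD1, an inhibitor of mTORC1 that many stresses besides hypoxia induce. FPKM were 27.4, 38.9 and 30.8 in sham, 89.5, 53.3 and 30.5 at 10 min and 116, 112 and 81.0 at 1 h. The 6 h mice had 95.2, 62.7 and 55.5, those of 24 h had 64.3, 43.6 and 39.7, and those of 72 h had 40.4, 34.9 and 33.0. At 10 min 2 of 3 mice were above all sham mice and the other was inside their range (log2 change 0.70, SE 0.34, adjusted p = 0.39). At 1 h all 3 were above, at 3.18 times the sham mean (log2 change 1.64, SE 0.16, adjusted p = 0.0036), and at 6 h they were so at 2.20 times (1.09, SE 0.21, adjusted p = 0.0105). At 24 h all 3 mice still lay above sham, but the change of 0.57 was not called (adjusted p = 0.062), and the ranges overlapped again at 72 h. Without the third mouse at 24 h the change was called (0.71, adjusted p = 0.0326), and without the second sham mouse that at 72 h was (0.30, adjusted p = 0.0355).

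Adm, on chromosome 7 (110627661–110629820, plus strand), encodes adrenomedullin, a vasodilator peptide. It was at 1.14, 1.10 and 0.967 FPKM in sham, 1.02, 1.14 and 1.20 at 10 min and 1.38, 1.22 and 1.72 at 1 h. It reached 4.70, 2.61 and 2.63 at 6 h, then 1.88, 1.24 and 3.33 at 24 h and 0.953, 0.845 and 1.20 at 72 h. Each mouse at 1 h, 6 h and 24 h was above every sham mouse, and the 6 h mean was 3.10 times that of sham. The change was called at 6 h (log2 change 1.03, SE 0.18, adjusted p = 0.00796), and not at 1 h (0.23, adjusted p = 0.37) or 24 h (0.55, adjusted p = 0.0941). It was called at 24 h without the second mouse of that group (0.77, adjusted p = 0.032). At 72 h sham and AMI mice overlapped.

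Bnip3, on chromosome 7 (138890836–138909519, minus strand), encodes a mitochondrial outer membrane protein that acts in mitophagy and cell death. It stood at 47.8, 50.6 and 47.3 FPKM in sham, with means of 47.9 at 10 min and 49.9 at 1 h. At 6 h it was at 83.1, 86.6 and 63.9, at 24 h at 75.6, 49.4 and 77.8, and at 72 h at 31.4, 31.3 and 27.7. All mice at 6 h were above sham, 2 of 3 were at 24 h, and all were below sham at 72 h. Bnip3 was thus the 1 gene of the 9 called in both directions, higher at 6 h (log2 change 0.66, SE 0.12, adjusted p = 0.0084) and lower at 72 h (-0.67, SE 0.071, adjusted p = 3.23e-05). At 24 h the change of 0.44 was not called (adjusted p = 0.0813), and it was without the second mouse at 24 h (0.65, adjusted p = 0.01). Per unit of cardiomyocyte markers Bnip3 stood at 182% of its sham ratio at 6 h, 204% at 24 h and 174% at 72 h, so its fall at 72 h was smaller than that of these markers.

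The paralogue Bnip3l, another mitophagy receptor and HIF target, was set beside Bnip3 because the proteins are close relatives. Bnip3l had 37.1 ± 0.421 FPKM in sham, 35.5 ± 2.34 at 6 h and 52.5 ± 3.71 at 72 h (log2 change at 72 h 0.49, SE 0.069, adjusted p = 0.000206). Bnip3 exceeded Bnip3l by a ratio of 1.31 ± 0.0359 in sham and 2.21 ± 0.448 at 6 h, and was below it at 72 h, at 0.578 ± 0.0733. In every mouse at 72 h the order of the 2 transcripts was the reverse of that in every sham mouse. The third mouse at 24 h, with Bnip3 at 77.8, also had the highest Bnip3l of its group, at 61.2.

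Ndrg1, on chromosome 15 (66929318–66969640, minus strand), encodes a stress-response protein induced by hypoxia and during differentiation. It measured 24.7, 22.7 and 25.1 FPKM in sham, with means of 24.3 at 10 min and 23.4 at 1 h. The 6 h mice had 46.8, 39.0 and 36.3, the 24 h mice 30.0, 25.5 and 59.4, and the 72 h mice 22.9, 26.0 and 23.9. All mice at 6 h lay above all earlier mice, and the log2 change was 0.72 (SE 0.11, adjusted p = 0.00404). At 24 h all were above sham, with the highest mouse at 2.33 times the lowest, and the change of 0.55 was not called (adjusted p = 0.162). At 72 h the change was 0.01 (adjusted p = 0.949) on FPKM as deposited but -0.30 (adjusted p = 0.00266) after rescaling by the median of ratios and -0.31 (adjusted p = 0.0038) after quantile normalization, so its direction at that time is set by the scaling.

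Ankrd37, on chromosome 8 (45996902–46005707, minus strand), encodes an ankyrin repeat protein and is a direct HIF-1 target. FPKM were 0.845, 0.737 and 1.49 in sham and 1.66, 1.69 and 1.82 in the 6 h mice. The 24 h mice had 2.02, 2.12 and 4.40, and the 72 h mice 1.71, 1.19 and 1.19. Its means at 10 min and 1 h were 1.22 and 1.01. All mice at 6 h and 24 h were above all sham mice, by a small margin at 6 h. The change was 0.45 at 6 h (adjusted p = 0.0544, not called) and 0.89 at 24 h (SE 0.25, adjusted p = 0.0323), where the mean was 2.78 times that of sham. The call at 24 h was lost on leaving out any 1 sham mouse (adjusted p = 0.0511 to 0.108), without a filter on low values (0.0591) and after quantile normalization (0.053), while the 6 h change was called after median-of-ratios scaling (0.51, adjusted p = 0.0347), after quantile normalization (0.49, adjusted p = 0.0373) and without the third sham mouse (0.60, adjusted p = 0.0204). Without that same sham mouse Ankrd37 was also called higher at 72 h (0.39, adjusted p = 0.0264).

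Some of these genes share exonic sequence with genes on the opposite strand in GENCODE M21, and the sources used here do not state that counting used strand. Of the Ankrd37 exons 22.7% are shared with Lrp2bp, which was at most at 0.187 FPKM, and 3.7% with Ufsp2, which was at 8.31 ± 0.396 in sham, 9.71 ± 0.273 at 24 h and 16.6 ± 0.786 at 72 h. Antisense genes with no row in the table share 22.3% of the exons of Bnip3, 6.35% of those of Ndrg1 and 5.6% of those of Hif1a. Another opposite-strand gene without a row shares 2.08% of the Ndrg1 exons. A protein-coding gene on the same strand as Hif1a, also without a row, shares 2.51% of the Hif1a exons. Without strand, reads from such shared stretches cannot be told apart, and for the same-strand gene strand would not separate them. The effect of shared stretches on the values was not tested.

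The ratio of the highest to the lowest of 3 mice was largest at 24 h for 7 of the 9 genes, the exceptions being Ddit4 (2.94 at 10 min) and Epas1 (1.23 at 72 h). For Ankrd37, near 1 FPKM, the ratio of 2.172 at 24 h was barely above 2.166 at 1 h and close to 2.025 in sham. The third mouse at 24 h was the highest of 3 in Hif1a, Egln3, Adm, Ankrd37, Bnip3 and Ndrg1 and the lowest in Epas1, Egln1 and Ddit4. It also had the highest sum of neutrophil markers (968 FPKM, against 210 and 42.9) and the lowest sum of cardiomyocyte markers (42284, against 54511 and 53289). The second mouse at 24 h, lowest in Hif1a, Egln3, Adm, Bnip3 and Ndrg1, had the lowest neutrophil sum. At 6 h the first mouse was the highest of 3 in Hif1a, Egln3, Adm, Ndrg1 and Ddit4, and had the highest neutrophil sum (1002) and the lowest cardiomyocyte sum (57689). Without the third mouse at 24 h the changes were 0.70 for Hif1a (adjusted p = 0.00363), 0.62 for Ankrd37 (adjusted p = 0.0283), -0.44 for Epas1 (adjusted p = 0.00476) and -0.44 for Egln1 (adjusted p = 0.011), all of them still called. Without the second mouse instead, 5 of the 9 were called higher at 24 h. The mouse left out was the lowest in most of the genes. The share of all genes called without it is not given here, so this count cannot be set against one. The part of these cells in the spread was not tested.

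**Figure D5:**
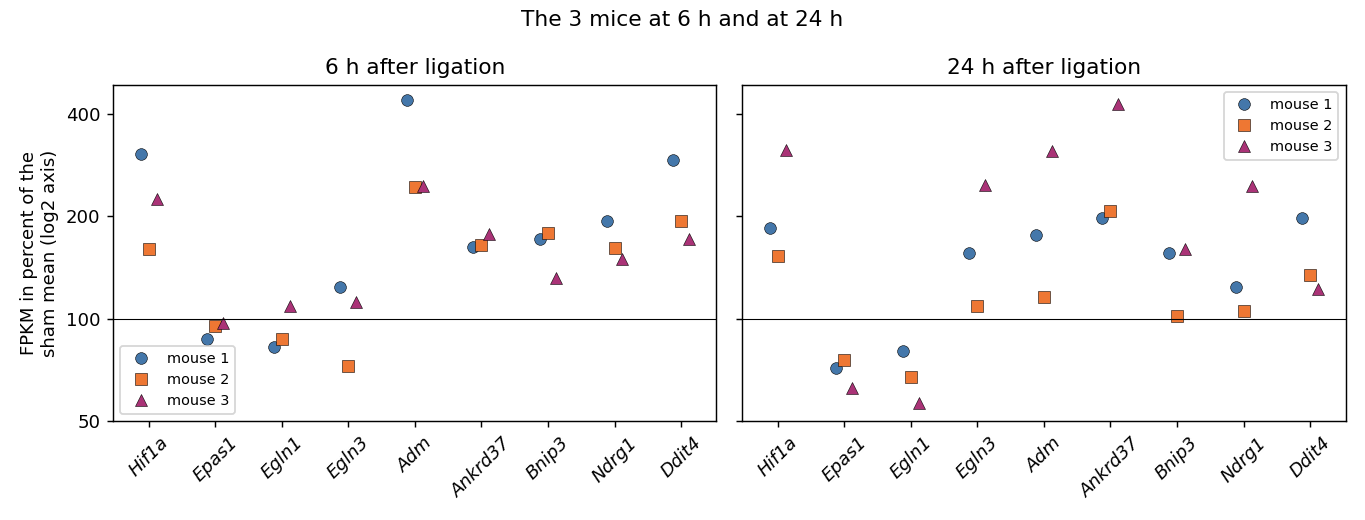
FPKM of the 9 genes in each of the 3 mice at 6 h (left) and at 24 h (right), in percent of the sham mean (vertical axis, log2 scale, with a line at 100). Circles, squares and triangles are mice 1, 2 and 3. At 24 h the third mouse is highest in 6 of the genes and lowest in the other 3, and at 6 h the first mouse is highest in 5.

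The other genes of the pathway were followed as 2 lists chosen for their known roles, with earlier results of these data known. Their counts and medians beside all genes are therefore descriptive. Of 14 genes of the machinery (partner subunits, hydroxylases, VHL complex and regulators), 0 were called in either direction at 10 min. Of all genes 0.248% were called higher and 0.0978% lower at that time. At an unadjusted limma p under 0.05 there were 2, and the share of all genes at that cut is not given here. At 1 h 1 was called higher (0.669% of all genes), at 6 h 2 (11.6%), at 24 h 2 (26.2%) and at 72 h 5 (53.1%). Called lower were 0 at 1 h (0.0526% of all genes), 0 at 6 h (16.8%), 0 at 24 h (11.4%) and 2 at 72 h (24.2%). The 2 of 14 called higher at 6 h stood near the share of all genes, and the counts called higher at 24 h and 72 h stood below it. Cited2, which competes with HIF for the coactivator p300, rose from 24.9 ± 1.90 FPKM to 46.7 ± 5.47 at 1 h (log2 change 0.88, adjusted p = 0.00507) and 38.1 ± 5.40 at 6 h (0.59, adjusted p = 0.0105). Hif3a, another alpha subunit that can act as an inhibitor, was higher at 6 h (0.604 ± 0.13 to 1.87 ± 0.614 FPKM, 0.82, adjusted p = 0.013) and lower at 72 h (0.25 ± 0.086 FPKM, -0.36, adjusted p = 0.0105). Siah2, a ubiquitin ligase for the hydroxylases, rose at 24 h (2.35 ± 0.332 to 3.87 ± 0.447 FPKM, 0.54, adjusted p = 0.0162). Vhl rose from 4.42 ± 0.0969 FPKM to 6.79 ± 1.57 at 24 h (0.51, adjusted p = 0.0351) and 8.30 ± 0.573 at 72 h (0.78, adjusted p = 2.06e-05). At 72 h Arnt2, a partner subunit, was also higher (0.113 ± 0.0356 to 0.806 ± 0.185 FPKM, 0.69, adjusted p = 0.000247) and Cul2, the scaffold of the VHL ligase, lower (17.2 ± 0.393 to 14.8 ± 0.956 FPKM, -0.20, adjusted p = 0.0241). Arnt2 stayed under 1 FPKM before 72 h and passed the filter on low values through the 72 h group alone. Its call there is thus not independent of the filter. Hif3a and, in the list of other targets, Angptl4 were under 1 FPKM in sham and passed through AMI mice alone. The list counts include such genes. The counts at 72 h turned with the scaling, to 2 higher and 8 lower after median-of-ratios rescaling and 1 higher and 10 lower after quantile normalization. The median change of all genes at 72 h also moved, from 0.29 to 0.03 and -0.12. The shares of all genes called under these scalings are not given here, so these counts have no share beside them.

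Of 42 other HIF targets 41 passed the filter, the exception being Car12. At 10 min 0 were called in either direction, against 0.248% of all genes higher and 0.0978% lower. At an unadjusted limma p under 0.05 there were 8 at 10 min. The share of all genes at that cut is not given here, so this count cannot be set against one. At 1 h 1 was called higher and 0 lower (0.669% and 0.0526% of all genes). At 6 h the test called 12 higher with 2 lower (11.6% and 16.8% of all genes), at 24 h 16 higher with 4 lower (26.2% and 11.4%), and at 72 h 20 higher with 16 lower (53.1% and 24.2%). The 20 of 41 called higher at 72 h stood near the share of all genes. Their median log2 change was 0.11 at 6 h, 0.44 at 24 h and 0.18 at 72 h, beside -0.08, 0.13 and 0.29 for all genes, and so lay below that of all genes at 72 h. Angptl4, a lipoprotein lipase inhibitor, rose from 0.43 ± 0.117 to 31.4 ± 11.7 at 6 h (4.44, adjusted p = 0.00015). Slc16a3, the lactate exporter MCT4, rose from 1.38 ± 0.365 to 57.1 ± 54.8 at 24 h (4.19, adjusted p = 0.00528) and 29.1 ± 3.99 at 72 h (3.66, adjusted p = 6.73e-08). Hmox1, which degrades haem, had the largest rise of the list at 72 h, from 4.61 ± 0.685 to 372 ± 38.4 (6.06, adjusted p = 8.73e-09). Among called genes the largest falls were those of Stc2 (a secreted glycoprotein, -0.69, adjusted p = 0.00366) and P4ha2 (a collagen prolyl hydroxylase, -0.27, adjusted p = 0.0484) at 6 h. At 24 h they were Vldlr (the very low density lipoprotein receptor, -0.94, adjusted p = 0.0107) and Stc2 (-0.61, adjusted p = 0.0112), and at 72 h Flt1 (VEGF receptor 1, -1.57, adjusted p = 1.25e-05) and Vldlr (-1.50, adjusted p = 5.89e-07). Median-of-ratios rescaling changed the number called lower to 1 at 6 h and 8 at 24 h.

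The genes most like each of the 9 were taken by Pearson's r of log2(FPKM + 1) over the 18 mice among 12668 genes, as a description, since mice of a group share their time and r carries no error here. Hif1a was most like Pgm1 (r = 0.983) and Csf2rb (0.981), Epas1 most like Sucla2 (0.983), and Egln1 most like Sod2 (0.995) and Vdac1 (0.994). For Adm the nearest were Gprc5a (0.954) and Phlda1 (0.947), for Ndrg1 Chd7 (0.976) and Fosl1 (0.970), and for Bnip3 Slco3a1 (0.939) and Adgrg1 (0.937). Ddit4 had Sgk1 (0.902) and Rhob (0.878), Ankrd37 had Preb (0.903) and Rdh10 (0.887), and Egln3 stood most alone, with Usp10 (0.855) and Iars (0.814). Among the 9 the closest pairs were Epas1 with Egln1 (0.965), Adm with Ndrg1 (0.887) and Adm with Bnip3 (0.788), and the most opposed was Hif1a with Egln1 (-0.77).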

How the data were processed

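Left ventricular RNA of 18 mice was sequenced, from 3 sham (the control mice of the labels) and 3 at each time. According to the submitters' processing notes and the methods, the authors used cutadapt 1.18 for trimming, HISAT2 2.1.0 for mapping to mm10 and StringTie 1.3.4d for expression. The table the authors deposited gives FPKM per gene symbol, and the annotation behind it is not given in the sources used here. Sample titles gave the groups, and columns were matched to titles by name. The authors' own differential test needs the reads and was not used. Depth in reads is unknown, so counting error could not be given, and each value's precision comes from the 3 mice of its group.

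Genes that reached 1 FPKM in any mouse (13333 of 24419) were tested on log2(FPKM + 1) with limma 3.58.1 under R 4.3.3 (eBayes with a variance trend), each comparison on its own 6 mice, with two-sided p-values adjusted over all tested genes by the Benjamini-Hochberg method. The labels name no batch. The 9 genes and the lists were chosen with earlier results of these data known. Named beside the 9 genes were, at each time, the 2 called genes of each pathway list with the largest rise and the 2 with the largest fall, and for each of the 9 the 2 genes with the highest Pearson's r. Genes that this rule names but the text leaves out are not reported here, and list counts include them. Bnip3l, Ufsp2, Lrp2bp, Car12 and single cardiomyocyte markers were named outside this rule, after their values were seen. Alternatives were a pseudocount of 0.1, no filter, median-of-ratios and quantile scaling, the replicate number as a block, a single fit of all 18 mice, an unadjusted p under 0.05 with a ratio of means over 2, and leaving out each mouse in turn. Positions came from GENCODE M21 on mm10 and promoters from RefSeq on GRCm38.p6. Levels, motifs and plots were made with Python 3.11.15, numpy 2.4.6, pandas 2.3.3 and matplotlib 3.10.9. The limma steps were tested on simulated data.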

Additional observations from a re-analysis of the deposited data

How the results depend on the processing

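The 3 mice of a group limit every value, and no fragment counts are given. Shares of all genes called are given only for the values as described. The numbers of genes called under the alternatives below therefore have no share beside them. Calls at 24 h changed most: 2 genes were called higher on the values as described, 1 without a filter, 1 after quantile normalization and 6 with all 18 mice in one fit, and between 0 and 5 on leaving out 1 mouse. Those called lower at 24 h numbered 2, and 1 to 2 on leaving out 1 mouse. Under an unadjusted p under 0.05 with a ratio of means over 2, the counts were 3 higher at 6 h in place of 5, 0 lower at 24 h in place of 2, 2 lower at 72 h in place of 4 and 2 higher at 6 h against 1 h in place of 4. With all 18 mice in one fit 1 gene was higher and 2 lower at 24 h against 6 h, where none was called, and 7 lower at 72 h against 24 h in place of 4. Median-of-ratios scaling gave 1 lower at 24 h against 6 h. On leaving out 1 mouse the counts ranged from 0 to 1 lower at 6 h against sham, from 1 to 2 higher at 72 h, from 1 to 4 higher and from 0 to 1 lower at 6 h against 1 h, and from 0 to 1 higher at 72 h against 24 h. Ndrg1 at 72 h turned from 0.01 to -0.30 (median of ratios) and -0.31 (quantile), both called. Among the machinery genes median-of-ratios scaling left 1 higher at 24 h and gave 2 higher and 8 lower at 72 h, and quantile normalization left 0 higher at 24 h and gave 1 higher and 10 lower at 72 h. Among the other targets median-of-ratios scaling gave 1 lower at 6 h and 8 lower at 24 h. Apart from the effect of fewer mice, the cause of these shifts was not tested. With 45 changes of the 9 genes against sham, 510 alternative values stayed on the same side of the threshold without a called reversal, of which 26, none of them called, had the opposite sign, while 12 lost a call and 16 gained one. A pseudocount of 0.1 changed no count of the 9 genes by over 1.5 times.

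Correlations of the deviations of mice with the same replicate number were mixed (between -0.259 and 0.0822 against sham, and between -0.327 and 0.415 between neighbouring times, where those of 1 h against 10 min were 0.196, 0.0905 and 0.148), so the numbers were not taken as pairs. With the replicate number as a block 3 genes were higher at 24 h in place of 2, 1 was lower at 6 h against 1 h in place of 0, and 6 were lower at 72 h against 24 h in place of 4.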
